A study of Mus musculus with 10 samples.

Results

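The nuclear genes for the oxidative phosphorylation machinery were followed in mouse myotubes in which the muscle long noncoding RNA Charme had been knocked down. They were chosen by symbol, as every gene of the expression table whose name begins with Nduf, Uqcr, Cox4 to Cox8 or Atp5, or is Sdha, Sdhb, Sdhc or Sdhd, with a mean level of at least 1 FPKM (fragments per kilobase of transcript scaled to the mapped fragments of the library). All 87 matching symbols passed that minimum, of 11228 genes in the table and 10993 at or above it. They comprised 36 subunits and 7 assembly factors of complex I, 4 subunits of complex II, 8 of complex III, 15 of complex IV, 15 of complex V and the 2 genes Atp5s and Atp5sl, which are not subunits.

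The respiratory chain sits in the inner mitochondrial membrane. Complexes I and II take electrons from NADH and succinate and pass them to ubiquinone, complex III moves them to cytochrome c, and complex IV hands them to oxygen. Complexes I, III and IV pump protons, and complex V, the ATP synthase, lets the protons flow back and makes ATP, so that contracting muscle depends on all of them; most subunits are nuclear genes and a small core is encoded by mitochondrial DNA, which was not analysed here.

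The RNA-seq libraries came from myotubes differentiated in vitro for 2 days and treated with gapmers, which are short antisense molecules whose DNA core recruits RNase H against the RNA they pair with. The 3 groups of 2 libraries were the gapmer set GAP-2/3, the gapmer set GAP-2, both aimed at Charme, and the scrambled control GAP-scr. The replicates are called biological by the submitters, with no statement of separate cultures, and the letters A and B name them. Charme itself was not measured here, so the extent of the knock-down is not known from these values.

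Of the myotube markers 12 of 12 were measured, with summed levels of 7820 to 8180 FPKM in GAP-2/3, 7130 to 7340 FPKM in GAP-2 and 11800 to 12700 FPKM in GAP-scr libraries. For comparison, 6 of 9 fibroblast markers had values and summed to 7540 to 7910 FPKM in GAP-2/3, 5830 to 6250 FPKM in GAP-2 and 4850 to 5280 FPKM in GAP-scr libraries. These 6 did not move together: 3 were higher and 3 lower in GAP-2/3 than in GAP-scr, with log2(FPKM + 1) changes from -0.92 to 1.48. Of the smooth muscle markers 5 of 6 had values, summing to 1630 to 1640, 1430 to 1470 and 2190 to 2440 FPKM in GAP-2/3, GAP-2 and GAP-scr libraries. Of the myoblast markers 3 of 5 had values, and 2 were called higher and 1 lower in GAP-2/3 by the test described below. Of the cardiac markers 3 of 8 had values, with 1 called higher and 1 lower there. Macrophage markers, 2 of 7 with values, summed to at most 7.7 FPKM in any library, with 1 called higher in GAP-2/3 and 2 in GAP-2. Of all genes 28.0% were called higher and 11.3% lower in GAP-2/3, and 10.4% higher in GAP-2. No adipocyte or endothelial marker had a value analysed here. In such bulk samples, fewer cells of a type and less RNA per cell cannot be told apart. The ribosomal transcript Rn45s reached 4090 FPKM in GAP-2 replicate A and 3387 FPKM in GAP-scr replicate A, against 93.2 to 175.5 FPKM in the other 4 libraries.

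Most of these genes lay above the median of all tested genes, which was 12.3 to 13.8 FPKM by library. The summed share of the 87 members in all FPKM stayed within a narrow range. Together they made up 4.08% and 3.91% of the summed FPKM in GAP-2/3 replicates A and B, 3.88% and 3.96% in GAP-2, and 3.91% and 4.12% in GAP-scr. The median member level, on the length-corrected FPKM scale, was highest for complex V at 459 FPKM, followed by complex III at 375, complex IV at 329, complex I subunits at 124 and complex II at 105 FPKM. The complex I assembly factors, which help to build the complex without being part of it, had a median of 8.77 FPKM, below that of all tested genes. Atp5s and Atp5sl averaged 4.44 and 3.35 FPKM. The most abundant member was Cox6c, a small complex IV subunit, with 1630 and 1419 FPKM in GAP-2/3, 1337 and 1402 FPKM in GAP-2, and 1253 and 1353 FPKM in GAP-scr replicates A and B. Next came Atp5b, the catalytic beta subunit of the ATP synthase, with 1241 and 1252 FPKM in GAP-2/3, 1138 and 1194 FPKM in GAP-2, and 1145 and 1185 FPKM in GAP-scr. Neither of these messages passed the test in any comparison, and the Atp5b levels of GAP-2 and GAP-scr libraries overlapped.

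Changes were tested with limma on log2(FPKM + 1) over all 10993 genes, and a gene was called at a Benjamini-Hochberg adjusted p below 0.05. In GAP-2/3 against GAP-scr, 17 members rose and 5 fell, or 25.3% of the 87. Of all tested genes 39.3% were called, with 28.0% of all tested genes higher and 11.3% lower. In GAP-2 against GAP-scr, 2 members rose and 1 fell, or 3.45%, against a background of 14.6%, with 10.4% higher and 4.18% lower. For the mean of both knock-down groups against GAP-scr, 10 members rose and 5 fell, or 17.2%, against a background of 34.1%, with 24.5% higher and 9.57% lower. In each comparison the share of members called was thus below the share of all genes called. The comparisons share their GAP-scr libraries, so they are not independent of each other.

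The median change of the 87 members was 0.08 in GAP-2/3, 0.02 in GAP-2 and 0.04 for the mean of both, on the log2(FPKM + 1) scale. The same medians over all tested genes were 0.13, 0.07 and 0.10, so more genes of the table lay above GAP-scr than below it, and the member medians were lower than those of all genes. That order rested on GAP-scr replicate B: without it the member medians were 0.16, 0.08 and 0.14, against 0.13, 0.06 and 0.10 for all genes. Without GAP-2/3 replicate B the medians in GAP-2/3 were 0.15 for members and 0.12 for all genes. When the libraries were scaled to a common median, the split in GAP-2/3 became 6 higher and 8 lower, where 17.5% of all genes were higher and 16.3% lower. With quantile normalization it became 9 higher and 7 lower, against 16.6% and 17.8% of all genes. For the mean of both groups, 14.7% of all genes were higher and 14.2% lower at a common median, and 14.3% and 15.4% with quantile normalization. These shares are the background of the later counts under the other scalings. The counts of calls also moved when a single library was left out, over the members and over all genes. Without GAP-2/3 replicate A the medians in GAP-2/3 were 0.05 for members and 0.14 for all genes. Without GAP-scr replicate A the member medians were 0.05 in GAP-2/3 and -0.10 in GAP-2, against 0.14 and 0.08 for all genes. The named calls that follow are given with the libraries whose omission lost them. A call could be lost while the change stayed the same, because all 6 libraries shared a common estimate of the spread. The Ndufs1 change in GAP-2/3, for example, was 0.31 with all libraries and 0.31 without either GAP-2 library, where its call was lost. Such a loss does not mean that the change rested on the omitted library.

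**Figure D1:**
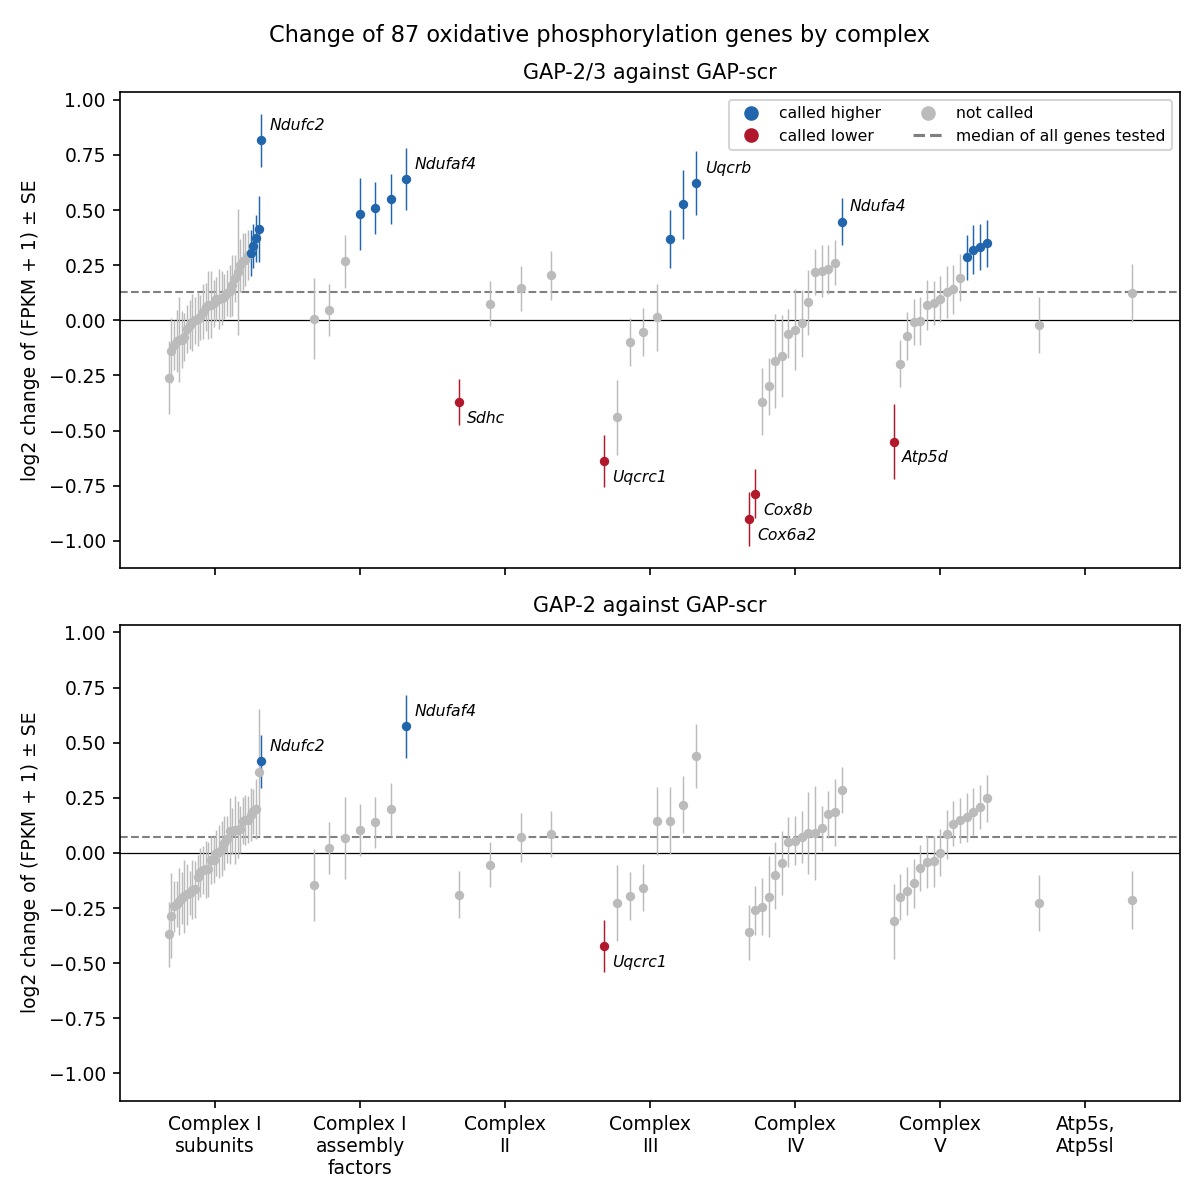
Log2 change of each of the 87 genes by complex, in GAP-2/3 (top) and in GAP-2 (bottom) against GAP-scr, with bars for the standard error, colours for the call and a dashed line at the median of all genes tested. The calls in GAP-2/3 run in both directions, from Cox6a2 at -0.90 to Ndufc2 at 0.82. In GAP-2, 3 members (3.45%) are called, where 14.6% of all genes are.

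Complex IV, cytochrome c oxidase, gave the most marked falls, and these lay in its muscle isoforms. Several of its nuclear subunits exist as a form made in most tissues and a form made in heart and skeletal muscle: Cox6a2, Cox7a1 and Cox8b are the muscle forms of Cox6a1, Cox7a2 and Cox8a. Cox6a2 measured 50.3 and 41.6 FPKM in GAP-2/3 replicates A and B, 63.8 and 70.5 FPKM in GAP-2, and 91.6 and 81.4 FPKM in GAP-scr. The 3 groups did not overlap, with GAP-2/3 lowest and GAP-scr highest. The change was -0.90 ± 0.12 (SE) in GAP-2/3, with an adjusted p of 0.000373 in limma, and -0.36 ± 0.12 in GAP-2, where it did not pass at 0.0699. For the mean of both groups it was -0.63 ± 0.11 with an adjusted p of 0.00164.

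Cox8b followed the same order, with 43.0 and 50.3 FPKM in GAP-2/3, 68.3 and 66.6 FPKM in GAP-2, and 79.4 and 82.6 FPKM in GAP-scr replicates A and B. Again no library of a group reached the range of another. It fell by 0.79 ± 0.11 on the log2 scale in GAP-2/3 (adjusted p = 0.000442, limma), and its change in GAP-2 was -0.26 ± 0.11 (adjusted p = 0.131). In the 16 alternatives to the analysis, both Cox6a2 and Cox8b stayed called in GAP-2/3, within -1.04 to -0.77 for Cox6a2 and -0.90 to -0.68 for Cox8b. The third muscle form, Cox7a1, had 13.9 and 12.1 FPKM in GAP-2/3, 16.8 and 14.8 FPKM in GAP-2, and 20.1 and 14.4 FPKM in GAP-scr. Its GAP-scr replicates lay far apart, the GAP-2 values lay between them, and the change of -0.37 ± 0.15 in GAP-2/3 did not pass (adjusted p = 0.0743, limma), though it did without GAP-scr replicate B at -0.60, with quantile normalization at -0.47, with libraries scaled to a common median at -0.48, and with the replicate letter as a block. Without GAP-scr replicate A the Cox7a1 change was -0.14 and did not pass.

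The forms made in most tissues did not pass in any comparison. Cox6a1 averaged 315 ± 7.01 FPKM in GAP-2/3, 342 ± 14.7 FPKM in GAP-2 and 330 ± 32.6 FPKM in GAP-scr (SD, n = 2 each). Cox8a averaged 624 ± 117, 709 ± 12.6 and 629 ± 117 FPKM in the same order, and Cox7a2 averaged 232 ± 25.9, 212 ± 5 and 221 ± 50.8 FPKM. The group ranges of all 3 overlapped between GAP-2/3 and GAP-scr. The change in GAP-2/3 was -0.06 ± 0.11 for Cox6a1, -0.01 ± 0.15 for Cox8a and 0.08 ± 0.15 for Cox7a2.

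**Figure D2:**
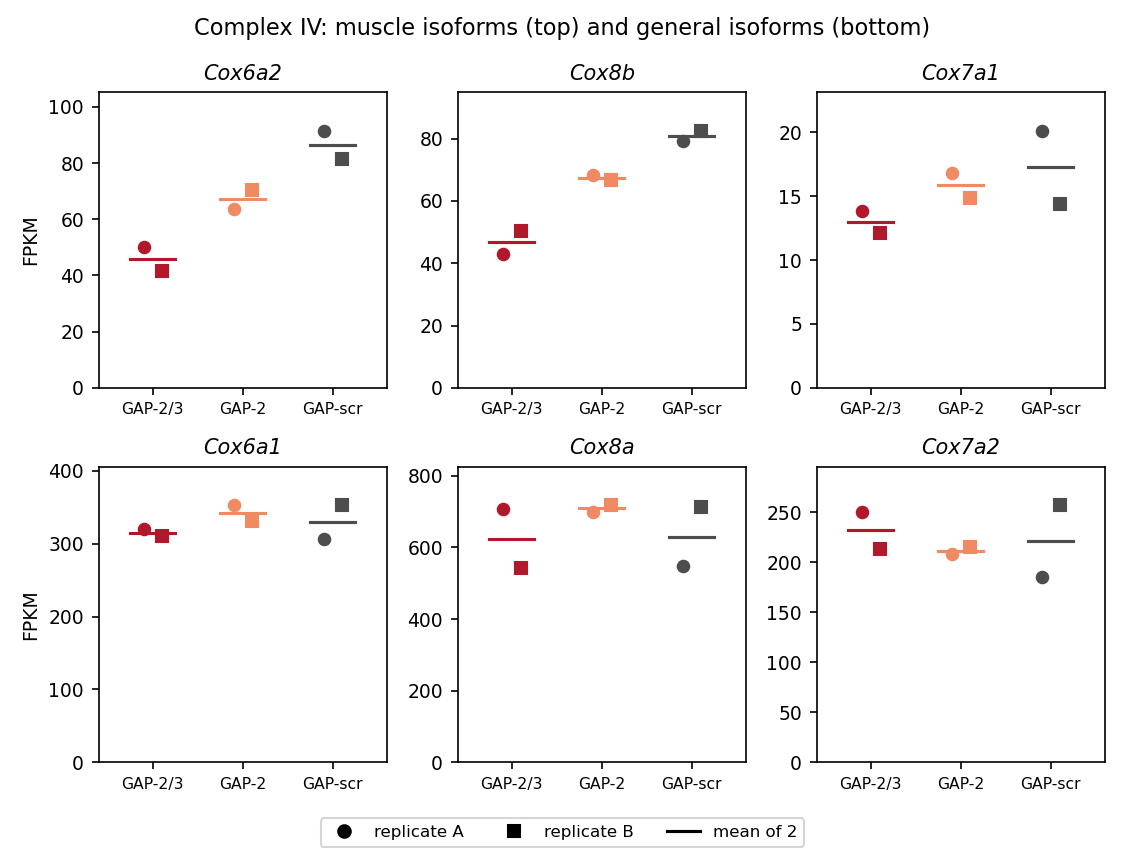
FPKM of the muscle forms (top row) and of their general counterparts (bottom row) of complex IV subunits, with a circle for replicate A, a square for replicate B and a line at the mean of 2 libraries. Cox6a2 and Cox8b are lowest in GAP-2/3, intermediate in GAP-2 and highest in GAP-scr without overlap, while the general forms overlap between groups.

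As a share of its pair, Cox6a2 made up 13.6% and 11.8% of the Cox6a1 and Cox6a2 message in GAP-2/3 libraries, 15.3% and 17.5% in GAP-2, and 23.0% and 18.8% in GAP-scr replicates A and B. The Cox8b share of the Cox8a and Cox8b message was 5.74% and 8.50% in GAP-2/3 libraries, 8.89% and 8.49% in GAP-2, and 12.7% and 10.4% in GAP-scr. For Cox7a1 with Cox7a2 it was 5.25% and 5.37%, 7.49% and 6.45%, and 9.80% and 5.29% in the same order. The Cox6a2 and Cox8b shares of both knock-down groups lay below every GAP-scr library, while the Cox7a1 share of GAP-scr replicate B lay within the GAP-2/3 range. With 2 libraries a group, no exact permutation test of a share between 2 groups could pass a threshold of 0.05, and none was made.

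Myotube markers given above were also called lower: of the 12, 6 in GAP-2/3, 8 in GAP-2 and 9 for the mean of both. The shares of all genes called lower were 11.3%, 4.18% and 9.57% in that order. In limma 0 markers were higher in these comparisons, also at an unadjusted p under 0.05. Of the 3 muscle isoforms, 0 were called in GAP-2. In GAP-2/3 against GAP-2 the markers ran from -0.83 to 0.43, with 1 called higher and 1 lower, where 10.1% of all genes were called. Cox6a2 and Cox8b were lower in GAP-2/3 than in GAP-2. The part of the marker change in the isoform result was not tested. In RefSeq, 13 members overlap another coding gene, among them the called members Cox6a2 (with Itgad), Uqcrc2, Atp5d, Ndufv2, Ndufb11 and Atp5j. The strand setting of the authors' counting is not stated, and Itgad had no value analysed here.

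The sequence just upstream is shown for the pairs of Cox8b and Cox7a1, to set the window of a muscle form beside that of its general form. Each runs 5′ to 3′ from 250 bases before to 50 bases after the RefSeq gene start (GRCm38.p6), and capitals mark the E-box, CANNTG, the motif bound by myogenic basic helix-loop-helix factors. The regions are chr7:140900397-140900696 for Cox8b, chr19:7217567-7217866 for Cox8a and chr9:79759804-79760103 for Cox7a2, all on the minus strand, and chr7:30183921-30184220 on the plus strand for Cox7a1.
Cox8b: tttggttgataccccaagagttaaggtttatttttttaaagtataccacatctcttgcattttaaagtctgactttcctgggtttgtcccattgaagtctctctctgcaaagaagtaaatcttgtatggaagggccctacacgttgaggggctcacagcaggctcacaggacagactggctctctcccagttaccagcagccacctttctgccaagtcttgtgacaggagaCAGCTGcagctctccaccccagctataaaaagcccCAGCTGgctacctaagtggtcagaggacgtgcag
Cox8a: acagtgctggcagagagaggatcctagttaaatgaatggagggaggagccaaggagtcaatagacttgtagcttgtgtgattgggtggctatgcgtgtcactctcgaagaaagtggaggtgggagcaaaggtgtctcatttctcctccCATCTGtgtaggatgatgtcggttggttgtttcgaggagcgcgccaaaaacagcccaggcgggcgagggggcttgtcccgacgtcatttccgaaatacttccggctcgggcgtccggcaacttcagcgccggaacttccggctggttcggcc
Cox7a1: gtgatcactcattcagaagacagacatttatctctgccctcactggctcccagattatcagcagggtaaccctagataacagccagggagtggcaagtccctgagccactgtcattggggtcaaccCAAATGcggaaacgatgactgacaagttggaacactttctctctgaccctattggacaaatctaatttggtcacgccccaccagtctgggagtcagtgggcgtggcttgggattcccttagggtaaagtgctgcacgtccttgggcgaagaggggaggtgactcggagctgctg
Cox7a2: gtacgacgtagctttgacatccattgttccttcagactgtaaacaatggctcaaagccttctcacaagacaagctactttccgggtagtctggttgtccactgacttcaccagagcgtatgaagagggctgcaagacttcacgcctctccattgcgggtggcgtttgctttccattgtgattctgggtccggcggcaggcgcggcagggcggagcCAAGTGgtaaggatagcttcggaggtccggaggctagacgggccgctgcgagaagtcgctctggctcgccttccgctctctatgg
The Cox8b window held 2 E-boxes and the other windows held 1 each. A match is a string of letters only, and no binding was measured at it.

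The rest of complex IV had few calls. Of its 12 members other than the muscle forms, 1 rose and 0 fell in GAP-2/3 (8.33%). Of all genes 39.3% were called there, 28.0% higher and 11.3% lower. At an unadjusted p under 0.05 in limma, 2 of the 12 were higher and 1 lower. For the mean of both groups 2 rose and 0 fell (16.7%, against 34.1% of all genes called). The riser in GAP-2/3 was Ndufa4, named as a complex I subunit but known to belong to complex IV. It measured 829 and 814 FPKM in GAP-2/3, 675 and 686 FPKM in GAP-2, and 635 and 571 FPKM in GAP-scr. Its groups did not overlap, and it changed by 0.45 ± 0.11 in GAP-2/3 (adjusted p = 0.00774, limma), a call lost at 0.43 without GAP-2/3 replicate A. For the mean of both groups Ndufa4 rose by 0.31 ± 0.09 (adjusted p = 0.0238), a call lost without any of GAP-2/3 A, GAP-2/3 B, GAP-2 A, GAP-2 B or GAP-scr B, and with libraries scaled to a common median. Cox7a2l, a factor of respiratory supercomplexes, measured 284 and 258 FPKM in GAP-2/3, 282 and 285 FPKM in GAP-2, and 232 and 233 FPKM in GAP-scr. Both knock-down groups lay above GAP-scr, and it passed only for their mean, at 0.25 ± 0.09 (adjusted p = 0.0483), a call that did not survive the omission of any of the 6 libraries. Cox4i1, a membrane-spanning subunit present in most tissues, measured 665 and 742 FPKM in GAP-2/3, 738 and 723 FPKM in GAP-2, and 769 and 974 FPKM in GAP-scr. Its change of -0.30 ± 0.13 in GAP-2/3 did not pass (adjusted p = 0.0835), but it passed at -0.47 without GAP-scr replicate A and at -0.42 with libraries scaled to a common median, and was -0.13 without GAP-scr replicate B.

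Complex III, the cytochrome bc1 complex, split within its own core. In GAP-2/3, 3 of its 8 members rose and 1 fell, where 28.0% of all genes rose and 11.3% fell. That split became 2 and 2 with quantile normalization, and 1 and 2 with libraries scaled to a common median. In GAP-2, 0 rose and 1 fell in limma, where 14.6% of all genes were called, with 1 higher and 1 lower at an unadjusted p under 0.05. Uqcrc1, core protein 1, fell to 75.9 and 85.6 FPKM in GAP-2/3 and to 98.1 and 89.4 FPKM in GAP-2, against 117 and 136 FPKM in GAP-scr replicates A and B. No library of either knock-down group reached the GAP-scr range. The change was -0.64 ± 0.12 in GAP-2/3 (adjusted p = 0.00204, limma) and -0.42 ± 0.12 in GAP-2 (adjusted p = 0.0338). The GAP-2/3 call held in all 16 alternatives, within -0.75 to -0.53, and the GAP-2 call was lost without any of GAP-2/3 A, GAP-2/3 B, GAP-2 A, GAP-2 B or GAP-scr B.

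Its partner in the core, Uqcrc2 or core protein 2, measured 146 and 130 FPKM in GAP-2/3, 94.1 and 117 FPKM in GAP-2, and 80.9 and 112 FPKM in GAP-scr. Only the GAP-2/3 libraries stood above all others. It rose by 0.53 ± 0.16 in GAP-2/3 (adjusted p = 0.0203, limma), a call lost without GAP-2/3 A, GAP-2/3 B or GAP-scr A and with libraries scaled to a common median, with a change of 0.30 without GAP-scr A. The FPKM ratio of Uqcrc1 to Uqcrc2 was 0.521 and 0.661 in GAP-2/3 libraries, 1.04 and 0.761 in GAP-2, and 1.44 and 1.22 in GAP-scr replicates A and B, with no overlap between any groups.

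Uqcrb, a small subunit next to the ubiquinone site, rose in parallel. It measured 383 and 347 FPKM in GAP-2/3, 288 and 358 FPKM in GAP-2, and 270 and 207 FPKM in GAP-scr, so that both knock-down groups lay above GAP-scr. Its change was 0.62 ± 0.15 in GAP-2/3 (adjusted p = 0.00692, limma), lost without GAP-2/3 replicate A at 0.55, and 0.44 ± 0.15 in GAP-2 (adjusted p = 0.0646). For the mean of both it was 0.53 ± 0.13 (adjusted p = 0.00888), lost without GAP-2/3 A or GAP-scr B (0.34 without GAP-scr B). Uqcrh, the hinge protein, measured 906 and 856 FPKM in GAP-2/3, 798 and 790 FPKM in GAP-2, and 777 and 599 FPKM in GAP-scr. It passed in GAP-2/3 at 0.37 ± 0.13 (adjusted p = 0.0417), and of the 6 omissions of a library the call remained only without GAP-scr replicate A, at 0.56. Without GAP-scr replicate B the Uqcrh change was 0.18, and the call was also lost under both other scalings. Uqcrq measured 444 and 388 FPKM in GAP-2/3, 454 and 511 FPKM in GAP-2, and 455 and 698 FPKM in GAP-scr, a change of -0.44 ± 0.17 in GAP-2/3 that did not pass (adjusted p = 0.0598). The Uqcrq change passed without GAP-scr replicate A at -0.75, under both other scalings and with the replicate letter as a block, and was -0.13 without GAP-scr replicate B. Uqcrfs1, the Rieske iron-sulfur protein, and Uqcr11 were not called in any comparison.

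Complex I, NADH dehydrogenase, had a smaller share of called genes than the table as a whole in GAP-2/3, where 5 of its 36 subunits rose and 0 fell (13.9%, against 39.3% of all genes, 28.0% higher and 11.3% lower). The risers were 2 of 7 core and 3 of 29 supernumerary subunits, with 7 higher and 0 lower at an unadjusted p under 0.05. The median change of the subunits was 0.09 in GAP-2/3 libraries and -0.02 in GAP-2 libraries. With quantile normalization 2 subunits rose in GAP-2/3, with a median of -0.01 against 0.0061 for all genes. With libraries scaled to a common median 1 rose, with a median of -0.03 against 0.03 for all genes. Ndufc2, a supernumerary subunit of the membrane arm, measured 115 and 102 FPKM in GAP-2/3, 79.2 and 84.6 FPKM in GAP-2, and 55.6 and 67.1 FPKM in GAP-scr replicates A and B. The groups were ordered without overlap. It rose by 0.82 ± 0.12 in GAP-2/3 (adjusted p = 0.000562, limma), a call that held in all 16 alternatives within 0.68 to 0.95. In GAP-2 it rose by 0.42 ± 0.12 (adjusted p = 0.0401), and there the call was lost without any library other than GAP-scr replicate B and under both other scalings.

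The other 4 subunits called in GAP-2/3 had smaller changes. Ndufs1, the large iron-sulfur subunit of the electron input module, measured 94.4 and 83.8 FPKM in GAP-2/3, 79.0 and 80.7 FPKM in GAP-2, and 72.3 and 71.3 FPKM in GAP-scr, and rose by 0.31 ± 0.11 in GAP-2/3 (adjusted p = 0.039, limma). Its call was lost without any of GAP-2/3 A, GAP-2 A, GAP-2 B or GAP-scr B and under both other scalings. Ndufv2, Ndufb5 and Ndufb11, named after their values were seen because they complete the count, rose by 0.42 ± 0.15, 0.37 ± 0.11 and 0.34 ± 0.10 in GAP-2/3. Ndufv2 lost its call without GAP-2/3 A or GAP-scr A (0.22 without GAP-scr A), Ndufb5 without GAP-2/3 A, GAP-2/3 B or GAP-scr B, and Ndufb11 without GAP-2/3 A, GAP-2 A or GAP-2 B. Ndufv2 and Ndufb11 also lost it under both other scalings, and Ndufb5 with libraries scaled to a common median. For the mean of both groups, Ndufb5 and Ndufb11 also passed, each at 0.26, and each kept that call through the omission of GAP-scr replicate A only, and through neither other scaling. Ndufv1, which carries the NADH site, measured 107 and 110 FPKM in GAP-2/3, 86.9 and 91.2 FPKM in GAP-2, and 99.1 and 103 FPKM in GAP-scr, and was not called in any comparison.

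The 7 complex I assembly factors gave 4 risers and 0 fallers in GAP-2/3 (57.1%, where 28.0% of all genes rose), 1 riser in GAP-2 (10.4% of all genes) and 3 for the mean of both (24.5% of all genes), with a median change of 0.48 in GAP-2/3 and 0.10 in GAP-2. At an unadjusted p under 0.05 in limma, 5 were higher and 0 lower in GAP-2/3. Under each of the other scalings, 3 rose in GAP-2/3 and 1 for the mean of both. Ndufaf4, which acts early in assembly, measured 11.6 and 9.06 FPKM in GAP-2/3, 9.33 and 10.2 FPKM in GAP-2, and 6.84 and 5.65 FPKM in GAP-scr. Both knock-down groups lay above GAP-scr and overlapped each other. It rose by 0.64 ± 0.14 in GAP-2/3 (adjusted p = 0.00511, limma), lost at 0.48 without GAP-2/3 A, and by 0.57 ± 0.14 in GAP-2 (adjusted p = 0.0213), lost without GAP-2 A, GAP-2 B or GAP-scr B. For the mean of both, Ndufaf4 rose by 0.61 ± 0.12 (adjusted p = 0.00392), which held in all 15 alternatives.

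Ndufaf1, a chaperone of the membrane arm intermediates, measured 17.3 and 18.0 FPKM in GAP-2/3, 12.2 and 13.9 FPKM in GAP-2, and 11.9 and 11.5 FPKM in GAP-scr. GAP-2/3 stood apart, while GAP-2 lay just above GAP-scr. It rose by 0.55 ± 0.11 in GAP-2/3 (adjusted p = 0.00384, limma) and held there in all 16 alternatives. For the mean of both it passed at 0.34 ± 0.10 (adjusted p = 0.0209), a call lost without GAP-2/3 A, GAP-2/3 B, GAP-2 B or GAP-scr B and under both other scalings. Ndufaf3, which works together with Ndufaf4, measured 9.51 and 8.71 FPKM in GAP-2/3, 4.74 and 6.46 FPKM in GAP-2, and 5.29 and 7.33 FPKM in GAP-scr. It rose by 0.48 ± 0.16 in GAP-2/3 (adjusted p = 0.036), lost without GAP-2/3 A, GAP-2/3 B or GAP-scr A and under both other scalings, down to 0.28 without GAP-scr A. Ndufaf7, a further assembly factor, was named after its values were seen, and rose by 0.51 ± 0.12 in GAP-2/3 (adjusted p = 0.00694), lost without GAP-2/3 replicate A.

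**Figure D3:**
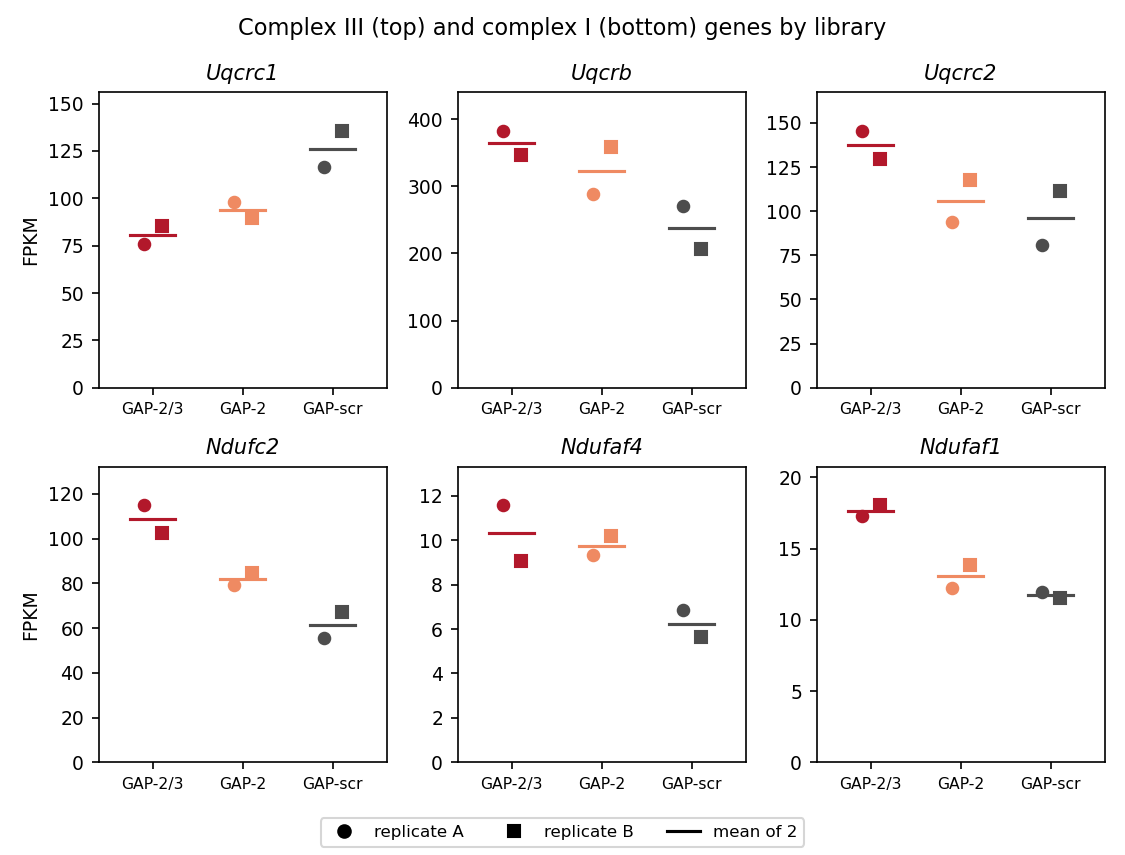
FPKM of 3 complex III genes (top row) and 3 complex I genes (bottom row) in the 6 libraries, with a circle for replicate A, a square for replicate B and a line at the mean of 2 libraries. Uqcrc1 is lowest and Uqcrc2, Ndufc2 and Ndufaf1 are highest in GAP-2/3, and Uqcrb and Ndufaf4 are high in both knock-down groups, which overlap.

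The upstream windows of the strongest faller and the strongest riser outside complex IV are shown because the genes moved in opposite directions in both knock-down groups. They lie on the plus strand at chr9:108936398-108936697 for Uqcrc1 and chr7:97399753-97400052 for Ndufc2 (GRCm38.p6), written as before with E-boxes in capitals.
Uqcrc1: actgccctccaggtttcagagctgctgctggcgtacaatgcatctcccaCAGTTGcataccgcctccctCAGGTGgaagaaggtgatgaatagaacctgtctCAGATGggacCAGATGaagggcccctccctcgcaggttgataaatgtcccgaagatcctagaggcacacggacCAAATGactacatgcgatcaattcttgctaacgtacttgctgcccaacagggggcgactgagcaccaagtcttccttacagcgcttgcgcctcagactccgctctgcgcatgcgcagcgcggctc
Ndufc2: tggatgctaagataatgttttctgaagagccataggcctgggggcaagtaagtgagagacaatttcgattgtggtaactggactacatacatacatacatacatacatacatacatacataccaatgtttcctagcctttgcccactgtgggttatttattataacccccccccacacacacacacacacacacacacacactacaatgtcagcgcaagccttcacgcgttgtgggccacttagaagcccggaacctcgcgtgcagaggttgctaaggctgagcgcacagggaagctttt
The Uqcrc1 window held 5 E-boxes and 2 copies of TGCGCA, the core of the site of nuclear respiratory factor 1, and the Ndufc2 window held neither. Across the promoters of all 74 members with a RefSeq window, TGCGCA was present in 25.7%, against 15.4% of 8823 windows of tested genes and 8.06% of all 27025 windows. The E-box was present in 73.0%, 61.7% and 72.1% in that order, and CCGGAAG, a site of the ETS factor GABPA, in 21.6%, 19.7% and 9.12%. AAGATGG, a core of the YY1 site, was present in 14.9%, 7.7% and 6.48%, and AAGGTCA, the half-site of estrogen-related receptors, in 10.8%, 2.91% and 4.66%. Both strands were read and matches of different motifs may overlap. Median GC content was 58.5% in member windows, 61.3% in windows of tested genes and 52.7% in all, and these shares are descriptions with no test.

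Complex II, succinate dehydrogenase, also belongs to the citric acid cycle. In GAP-2/3, 1 of its 4 subunits was called, lower, where 39.3% of all genes were called. The same count held for the mean of both groups, against 34.1% of all genes. In GAP-2, 0 of the 4 were called, against 14.6% of all genes. Sdhc, a membrane anchor, measured 53.5 and 54.6 FPKM in GAP-2/3, 63.4 and 59.5 FPKM in GAP-2, and 66.6 and 73.9 FPKM in GAP-scr. The groups did not overlap. It fell by 0.37 ± 0.11 on the log2 scale in GAP-2/3 (adjusted p = 0.0177, limma), a call lost without GAP-2/3 A, GAP-2/3 B or GAP-scr B. For the mean of both Sdhc fell by 0.28 ± 0.09 (adjusted p = 0.0358), and the call remained only when GAP-scr replicate A was the library left out. The flavoprotein Sdha averaged 93.0 ± 0.965 FPKM in GAP-2/3, 80.8 ± 2.91 in GAP-2 and 84.0 ± 3.52 in GAP-scr (SD, n = 2 each). The iron-sulfur subunit Sdhb averaged 125 ± 5.39, 126 ± 0.00566 and 119 ± 6.6 FPKM in that order, and the other anchor, Sdhd, 181 ± 20.1, 165 ± 2.22 and 157 ± 4.21 FPKM. None of these 3 passed.

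Complex V, the ATP synthase, gave 4 risers and 1 faller among 15 subunits in GAP-2/3, or 33.3% called. Of all genes 39.3% were called there, 28.0% higher and 11.3% lower. In GAP-2, 0 were called, against 14.6% of all genes, with 1 higher and 0 lower at an unadjusted p under 0.05 in limma. In GAP-2/3 the split became 1 higher and 1 lower with quantile normalization, and 0 higher and 1 lower with libraries scaled to a common median. Within the central stalk of the F1 part, the gamma and delta subunits moved in opposite directions. Atp5c1, the gamma subunit that turns inside the head, measured 360 and 322 FPKM in GAP-2/3, 307 and 328 FPKM in GAP-2, and 268 and 266 FPKM in GAP-scr. Both knock-down groups lay above GAP-scr. It rose by 0.35 ± 0.11 in GAP-2/3 (adjusted p = 0.0232, limma), lost without GAP-2/3 A, GAP-2 A or GAP-2 B and under both other scalings, and by 0.30 ± 0.09 for the mean of both (adjusted p = 0.0282), lost also without GAP-scr B.

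Atp5d, the delta subunit at the foot of the stalk, measured 330 and 305 FPKM in GAP-2/3, 362 and 387 FPKM in GAP-2, and 371 and 581 FPKM in GAP-scr. GAP-scr replicate B was far above every other library, and GAP-2 overlapped GAP-scr replicate A. It fell by 0.55 ± 0.17 in GAP-2/3 on the log2 scale (adjusted p = 0.0241, limma), lost without GAP-2/3 A, GAP-2/3 B or GAP-scr B, with a change of -0.23 without GAP-scr B and of -0.87 without GAP-scr A. For the mean of both it was -0.43 ± 0.15 (adjusted p = 0.0411), lost without GAP-2/3 A, GAP-2/3 B, GAP-2 A or GAP-scr B, with -0.11 without GAP-scr B and -0.75 without GAP-scr A. The catalytic head subunits Atp5a1 and Atp5b were not called, at -0.01 ± 0.10 and 0.10 ± 0.11 in GAP-2/3. Of the membrane part, Atp5j2 rose by 0.33 ± 0.10 in GAP-2/3 (adjusted p = 0.0252), lost without either GAP-2/3 library, without either GAP-2 library and under both other scalings. The peripheral stalk subunits Atp5h and Atp5j, named after their values were seen, rose by 0.29 ± 0.10 and 0.32 ± 0.11 in GAP-2/3, and each kept its call only when GAP-scr replicate A was the library left out.

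The c ring of the ATP synthase, the rotor through which protons pass, is encoded by Atp5g1, Atp5g2 and Atp5g3, whose mature proteins are the same and whose transit peptides differ. Atp5g3 made up 43.1% and 43.2% of their summed FPKM in GAP-2/3 libraries, 42.1% and 43.1% in GAP-2, and 49.2% and 49.4% in GAP-scr replicates A and B. Atp5g2 made up 43.6% and 43.0%, 42.9% and 42.5%, and 37.4% and 38.3% in the same order. All 4 knock-down libraries lay below the GAP-scr libraries for Atp5g3 and above them for Atp5g2. The Atp5g1 share was 13.3% and 13.8% in GAP-2/3 libraries, 15.0% and 14.4% in GAP-2, and 13.4% and 12.3% in GAP-scr.

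None of the c ring genes passed on its own in any comparison. For the mean of both groups the changes were -0.20 ± 0.09 for Atp5g3 (adjusted p = 0.113, limma), 0.19 ± 0.09 for Atp5g2 (adjusted p = 0.127) and 0.14 ± 0.09 for Atp5g1 (adjusted p = 0.218). Atp5g3 passed for that mean, at -0.29, when the libraries were scaled to a common median. The mean Atp5g3 share of 43.1 ± 0.0697% in GAP-2/3 and 42.6 ± 0.715% in GAP-2 stood against 49.3 ± 0.141% in GAP-scr (SD, n = 2 each), a gap wider than that between the replicates of any group. These genes have close copies in the genome, and how the authors' counting split such reads is not stated.

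**Figure D4:**
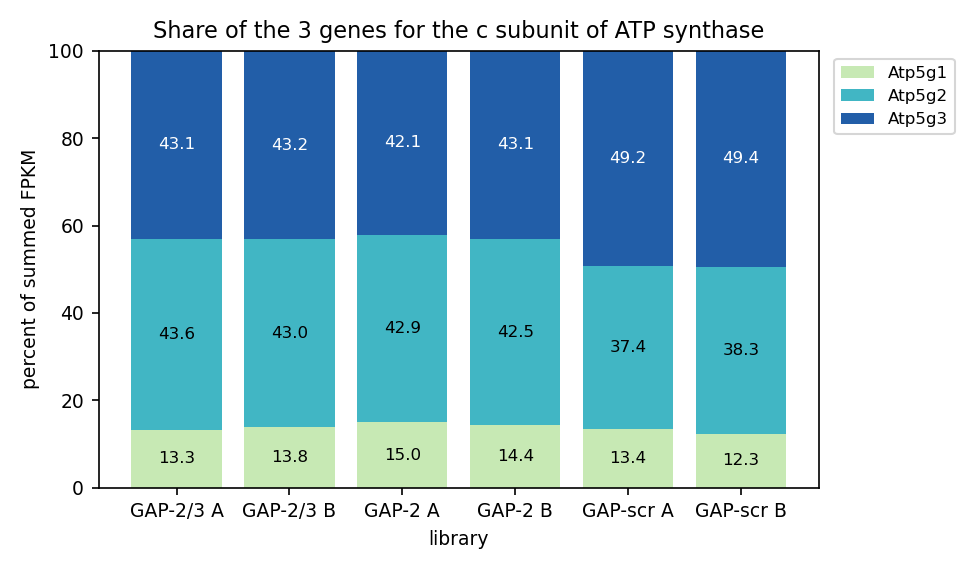
Percent of the summed FPKM of Atp5g1, Atp5g2 and Atp5g3 taken by each gene in each of the 6 libraries, with bars stacked to 100. Atp5g3 takes 42.1% to 43.2% in the 4 knock-down libraries and 49.2% and 49.4% in the 2 GAP-scr libraries.

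The direct comparison of both gapmer sets, GAP-2/3 against GAP-2, called 2 members higher and 2 lower, or 4.6%, where 10.1% of all genes were called, 6.5% higher and 3.65% lower. The fallers were Cox6a2 at -0.54 ± 0.12 (adjusted p = 0.0188, limma) and Cox8b at -0.53 ± 0.11 (adjusted p = 0.0126). The risers were Ndufaf3 at 0.63 ± 0.16 (adjusted p = 0.0323) and Ndufaf1 at 0.41 ± 0.11 (adjusted p = 0.043). In all 4 genes the GAP-2/3 libraries lay outside the range of the GAP-2 libraries. These genes were picked by their p in the same libraries, so this separation is no further evidence. The share of all genes separated in this way is not given. The call of Cox6a2 was lost without any of the 4 libraries compared, and that of Cox8b without GAP-2/3 A, GAP-2 A or GAP-2 B. Ndufaf1 lost its call without any of those 4 and Ndufaf3 without GAP-2/3 A, GAP-2/3 B or GAP-2 A, and both lost it under the other scalings. Uqcrc1 and Ndufc2, called in both gapmer sets, differed between the sets by -0.21 ± 0.12 and 0.40 ± 0.12, neither past the threshold (adjusted p = 0.279 and 0.0558).

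Some members differed more between replicates than between groups. The median absolute gap between replicates was 0.14 in GAP-2/3, 0.09 in GAP-2 and 0.16 in GAP-scr on the log2(FPKM + 1) scale, close to the 0.13, 0.09 and 0.16 of all tested genes. For 8 members, Cox5a, Cox5b, Cox7b, Cox8a, Ndufab1, Ndufaf6, Ndufv2 and Uqcrfs1, replicate B was lower than A in GAP-2/3 and higher than A in GAP-scr, each by more than 0.25. This set was picked by that gap, so it is a description. The widest was Ndufab1, the mitochondrial acyl carrier protein, with 107 and 59.6 FPKM in GAP-2/3, 77.8 and 101 FPKM in GAP-2, and 49.8 and 94.2 FPKM in GAP-scr replicates A and B. Cox5a, a matrix-side subunit of complex IV, measured 215 and 133 FPKM in GAP-2/3, 193 and 217 FPKM in GAP-2, and 158 and 234 FPKM in GAP-scr. In both genes the GAP-2/3 and GAP-scr ranges overlapped and no change was called between those groups. Without both libraries highest in Rn45s, Cox5a was called lower in GAP-2/3 at -0.47, against -0.19 with all libraries, and Cox5b at -0.41, against -0.16.

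**Figure D5:**
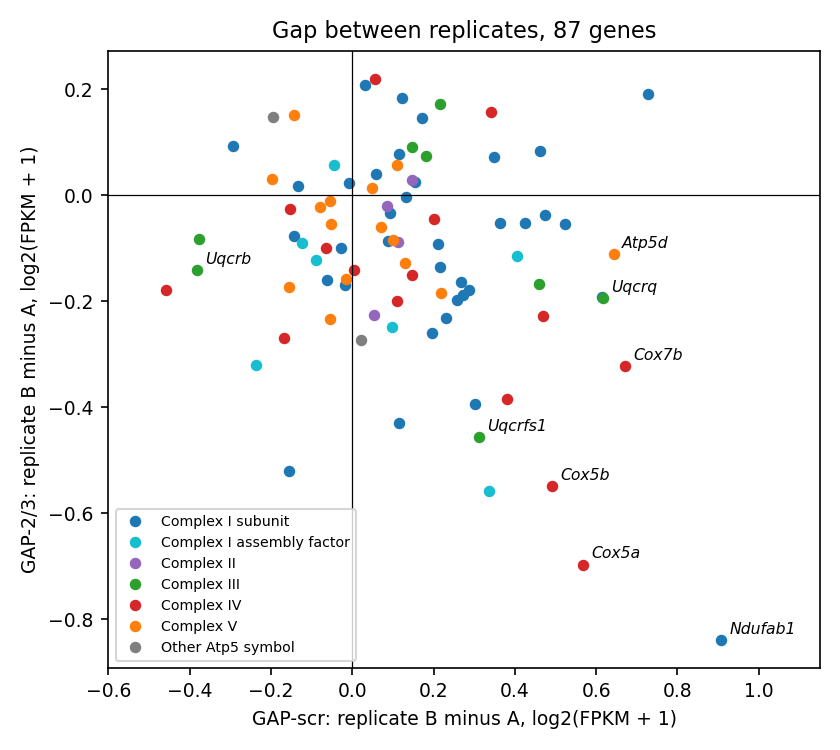
Gap between replicates B and A, in log2(FPKM + 1), in GAP-2/3 (vertical axis) against GAP-scr (horizontal axis) for the 87 genes, coloured by complex. Ndufab1 lies at -0.84 and 0.91, at the lower right, with Cox5a, Cox5b and Cox7b on the same side.

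Genes that serve the respiratory chain without being members showed calls in both directions. Of 35 assembly factors outside the Ndufaf family, 9 rose and 1 fell in GAP-2/3, and 7 rose and 1 fell for the mean of both groups, where 28.0% and 24.5% of all genes rose. With quantile normalization 6 rose and 3 fell in GAP-2/3, and with libraries scaled to a common median 6 rose and 2 fell. Under each of those scalings 4 rose and 1 fell for the mean of both. Cox20, a chaperone for the mitochondrial-encoded complex IV subunit COX2, measured 70.6 and 58.9 FPKM in GAP-2/3, 51.5 and 49.0 FPKM in GAP-2, and 33.6 and 23.9 FPKM in GAP-scr. It rose by 1.16 ± 0.15 in GAP-2/3 (adjusted p = 0.00027, limma) and by 0.80 ± 0.15 in GAP-2 (adjusted p = 0.00597), and both calls held in all 16 alternatives. Tmem126b, of the complex I membrane arm assembly, rose by 0.45 ± 0.10 for the mean of both (adjusted p = 0.00635), and the iron-sulfur carrier Nubpl by 0.43 ± 0.11 (adjusted p = 0.0105), and the Nubpl call was lost without GAP-2 B.

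Among 18 electron carriers and ubiquinone genes, 2 rose and 2 fell for the mean of both groups, where 34.1% of all genes were called. The split was 1 and 4 with quantile normalization, and 1 and 3 with libraries scaled to a common median. Etfdh, which feeds electrons from fatty acid oxidation into ubiquinone, measured 37.3 and 34.4 FPKM in GAP-2/3, 26.2 and 28.3 FPKM in GAP-2, and 22.9 and 21.7 FPKM in GAP-scr. It rose by 0.66 ± 0.11 in GAP-2/3 (adjusted p = 0.0011, limma), held in all 16 alternatives, and was 0.28 ± 0.11 in GAP-2 (adjusted p = 0.104). Cyc1, cytochrome c1 and thus in fact a complex III subunit that the symbol rule does not take in, measured 250 and 252 FPKM in GAP-2/3, 299 and 299 FPKM in GAP-2, and 307 and 379 FPKM in GAP-scr, with no overlap between knock-down and control libraries. Its change in GAP-2/3 was -0.44 ± 0.12 (adjusted p = 0.0131), lost without either GAP-2/3 library, and -0.29 without GAP-scr B. Gpd2 rose by 0.31 ± 0.11 and Pdss2 fell by 0.35 ± 0.12 for the mean of both, and each of these calls was lost when any of 5 libraries was left out.

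Of 8 genes that act on or beside the ATP synthase, including those of cristae shape, 6 rose and 0 fell in GAP-2/3 in limma, where 28.0% of all genes rose, with 7 higher and 0 lower at an unadjusted p under 0.05, and 4 rose for the mean of both. In GAP-2/3 4 rose with quantile normalization and 2 with libraries scaled to a common median, and 2 rose for the mean under each. Atpif1, the inhibitor that stops the enzyme from running backwards, measured 264 and 249 FPKM in GAP-2/3, 200.4 and 221 FPKM in GAP-2, and 177 and 166 FPKM in GAP-scr. The groups were ordered without overlap, and it rose by 0.58 ± 0.11 in GAP-2/3 (adjusted p = 0.002, limma), held in all 16 alternatives. Apoo, of the cristae-shaping MICOS complex, rose by 0.60 ± 0.13 for the mean of both (adjusted p = 0.00482). Usmg5 and 2010107E04Rik, small proteins bound to the ATP synthase, rose by 0.34 ± 0.11 and 0.31 ± 0.10 for the mean of both, and each call was lost without any library but GAP-scr A and under both other scalings. Without GAP-scr B the values were 0.15 for Usmg5 and 0.20 for 2010107E04Rik, and without GAP-scr A Usmg5 was 0.52.

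In the citric acid cycle 2 of 19 genes rose and 2 fell for the mean of both, where 24.5% of all genes rose and 9.57% fell, and with libraries scaled to a common median 0 rose and 2 fell. Of 20 genes for mitochondrial DNA upkeep and transcription 5 rose and 1 fell, but 0 and 3 did with quantile normalization and 1 and 2 with libraries scaled to a common median. Ogdh, of the oxoglutarate dehydrogenase complex, measured 24.1 and 27.3 FPKM in GAP-2/3, 31.6 and 26.1 FPKM in GAP-2, and 40.7 and 39.3 FPKM in GAP-scr, and fell by 0.54 ± 0.11 for the mean of both (adjusted p = 0.00335, limma). Polrmt, the mitochondrial RNA polymerase, measured 12.0 and 15.2 FPKM in GAP-2/3, 15.8 and 13.5 FPKM in GAP-2, and 20.6 and 19.8 FPKM in GAP-scr, and fell by 0.49 ± 0.12 (adjusted p = 0.00805). Both knock-down groups lay below GAP-scr in both genes, and both calls held in all 15 alternatives. The others named by the rule, for the mean of both, were Dld at 0.43, Idh3a at 0.26, Mterfd1 at 0.48, Polg2 at 0.40, Mterfd2 at 0.37 and Pcx at -0.43. Each of those 6 calls was lost without at least GAP-2/3 A and GAP-scr B. Without GAP-scr B, Mterfd1 was 0.21 and Dld 0.26, and without GAP-scr A, Mterfd1 was 0.76.

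In the chromatin pull-down of Charme, 0 of the 87 member spans overlapped any of the 798 merged peaks by at least 1 base, against 191 of 10949 tested genes with a position (1.74%). Gene positions were those of GRCm38.p6, the submitters' processing notes name mm9, and the build of the peak list is not given in it, so this count holds only if the list follows GRCm38.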

How the data were processed

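RNA-seq levels were the FPKM values deposited by the authors in a table of 11228 genes for 6 libraries of polyadenylated RNA, made with a TruSeq stranded kit per the labels' protocols. The submitters' processing notes name CASAVA, FastQC, Trimmomatic, cutadapt, Bowtie2, TopHat2, Cufflinks, Cuffdiff, bedtools and MACS, and as build mm9, giving neither roles nor versions. FPKM keep no counts, so the depth per library is not known from these values and no counting interval is given. The merged peak list of the Charme pull-down holds 798 peaks with a deposited score per peak, which was not used beyond the peak positions.

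From the FPKM, log2(FPKM + 1) was fitted for 10993 genes averaging 1 FPKM or more, with limma 3.58.1 in R 4.3.3, an intensity trend and all 6 libraries in the 3 groups. The Benjamini-Hochberg adjustment ran over all genes, with 0.05 as the threshold. The pseudocount of 1 understates the change of low genes. The fit was also run on simulated data, with independent noise and the same change in both knock-down groups. That run does not vouch for the calls given here. Errors of changes are standard errors, and errors of levels are SDs over 2 libraries.

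Genes were named by a rule: per complex, the 3 highest in mean level, the 3 with the smallest p for the mean of both knock-down groups, and the 2 with the smallest p in each other comparison, with the isoforms and catalytic subunits, and up to 4 per further pathway list. The members and lists were chosen with earlier results of these data known. Alternatives were other pseudocounts, filters, scalings, thresholds and variance models, a replicate block, and the omission of libraries.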

Additional observations from a re-analysis of the deposited data

Results flagged for a closer look

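The knock-down groups differed from each other in 4 members in the direct limma test of GAP-2/3 against GAP-2. Cox6a2 differed by -0.54 and Cox8b by -0.53 on the log2(FPKM + 1) scale, both lower in GAP-2/3. Ndufaf1 differed by 0.41 and Ndufaf3 by 0.63, both higher in GAP-2/3. All 4 had both GAP-2/3 libraries outside the range of the GAP-2 libraries, which is no further evidence in genes called from these libraries. None kept its call through the omission of each library in turn.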

How the results depend on the processing

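Of 79 calls on named genes, 21 held in every alternative and 0 reversed in sign. With libraries scaled to a common median, 6 members were called higher in GAP-2/3, 1 in GAP-2 and 3 for the mean of both. In GAP-2/3 against GAP-2, 0 were. Of all genes 17.5%, 6.44%, 14.7% and 4.22% were higher in that order. Members lower in GAP-2/3 became 8, where 16.3% of all genes were lower. The median changes became -0.038, -0.053 and -0.048 in GAP-2/3, GAP-2 and their mean, against 0.027, 0.005 and 0.018 for all genes. Quantile normalization gave 9 higher in GAP-2/3, 1 in GAP-2, 4 for the mean and 0 in GAP-2/3 against GAP-2. The shares of all genes were 16.6%, 6.29%, 14.3% and 4.48% in that order. The medians were -0.018 in GAP-2/3 and -0.028 for the mean, against 0.0061 and 0.0009 for all genes. Fitting only the libraries compared gave 10 higher in GAP-2/3, 1 higher and 0 lower in GAP-2, and 9 higher in GAP-2/3 against GAP-2; it has no value for the mean of both. Without the intensity trend 1 was higher in GAP-2. At an adjusted p of 0.1 there were 8 lower in GAP-2/3, 4 higher and 2 lower in GAP-2, 17 higher for the mean and 6 higher in GAP-2/3 against GAP-2. Without both libraries highest in Rn45s, 13 were lower in GAP-2/3, 7 lower in GAP-2 (median -0.053), 6 higher and 11 lower for the mean (median -0.028) and 0 higher in GAP-2/3 against GAP-2. Leaving out each replicate in turn, the members higher ranged from 2 to 16 in GAP-2/3, 0 to 3 in GAP-2, 2 to 13 for the mean and 0 to 9 in GAP-2/3 against GAP-2. The members lower ranged from 3 to 12, 0 to 12, 3 to 12 and 0 to 2 in that order, and the median changes from 0.049 to 0.165, -0.097 to 0.077, -0.036 to 0.137 and 0.060 to 0.164. The counts over all genes moved in these settings as well. The cause of these movements was not tested.

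With the replicate letter as a block (replicate block), 16 members were higher and 7 lower in GAP-2/3, 3 higher and 2 lower in GAP-2, 9 higher and 6 lower for the mean, and 3 higher and 2 lower in GAP-2/3 against GAP-2. The letters are not stated to mark a shared culture. Deviations of same-lettered libraries correlated at -0.131 for GAP-2/3 with GAP-scr, 0.36 for GAP-2 with GAP-scr and -0.181 for GAP-2/3 with GAP-2 across all genes. Limits are the 2 libraries a group, an unknown depth, FPKM in place of counts, and overlapping or duplicated gene loci.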
